A study of Rattus norvegicus with 16 samples.

Results

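The mitochondrial carrier family, the Slc25 genes with the uncoupling proteins Ucp1, Ucp2 and Ucp3, was followed across the stomach and the middle part of the intestine of suckling rats. Members were the genes whose name on the array was Slc25a followed by a number, or Ucp1, Ucp2 or Ucp3. The rule found 48 genes on 63 probes among 26113 genes on 30367 probes, and each gene was represented by its probe with the highest mean signal of the tissue channel. Of the 48 members 40 could be tested, out of 18271 genes tested in all.

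Stomach and middle intestine of Wistar rats (Wistar Han in the study's methods) were hybridised to 16 arrays, 4 for each tissue of the groups C and OH. Rats of group C (labelled NC) were given saline solution, and rats of group OH (labelled NOH) were given obestatin, a peptide made from the ghrelin precursor, at 250 nmol per kg of body weight. The enteral doses, 2 each day, began on day 14 after birth and ended on day 21. Each two-colour array compared the RNA of a tissue, labelled with Cy5, with a reference pool of stomach and middle intestine RNA from all animals of the study, labelled with Cy3, and the dyes were never swapped. A value below is the log2 ratio of tissue to pool, so 0 means the level of the pool, and values of different genes cannot be set against each other as amounts. The labels do not say whether arrays with the same number share an animal. The study's methods state that 4 rats of each group were sampled for stomach and middle intestine, so the 2 tissues may share animals. Apart from a fit with the replicate number as a block, the tests took the arrays as independent. The p-values measure the spread between these samples.

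Carriers of this family sit mostly in the inner mitochondrial membrane and move metabolites, nucleotides, cofactors and protons between the cytosol and the matrix. They are built from repeats of the same fold, each with a short carrier signature that opens with proline and carries an acidic and a basic residue. In the milk-fed pup, fat is the main fuel, and the small intestine makes citrulline and arginine from glutamine and proline, so that carnitine, glutamate and ornithine carriers are of interest there, while acid secretion makes the stomach a tissue rich in mitochondria.

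The signature can be read directly in the probe for the citrate carrier Slc25a1, which is placed at chr11:85045916-85046057 on the plus strand of the rn4 build named by the array design. It is printed because it is the only member probe with the pattern Pro-x-Asp/Glu-x-x-Lys/Arg in an open reading frame over its 60 bases, and the capitals, bases 6 to 23, mark the codons of the pattern.
Slc25a1 probe: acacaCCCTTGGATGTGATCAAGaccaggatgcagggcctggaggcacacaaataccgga

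Promoters of 4 members that were higher in stomach in both groups follow, as the 250 bases before the transcription start given by RefSeq for the GRCr8 build. They are shown because the 2 uncoupling proteins and the 2 ADP/ATP carriers were all higher in stomach. Capitals mark matches, on either strand, to 5 short motifs: the binding motif of nuclear factor Y, which reads CCAAT, the motif of erythroid-type zinc finger factors, which reads AGATAA, the motif of nuclear receptor monomers, which reads AGGTCA, the motif of Sp-type factors, which reads CCGCCC, and the core promoter motif that positions the polymerase, which reads TATAAA. The marked matches do not overlap one another. Ucp3 is at chr1:164227660-164227909 on the plus strand, Ucp1 at chr19:41721422-41721671 on the minus strand, Slc25a4 at chr16:52805271-52805520 on the plus strand and Slc25a5 at chrX:120897366-120897615 on the plus strand.
Ucp3: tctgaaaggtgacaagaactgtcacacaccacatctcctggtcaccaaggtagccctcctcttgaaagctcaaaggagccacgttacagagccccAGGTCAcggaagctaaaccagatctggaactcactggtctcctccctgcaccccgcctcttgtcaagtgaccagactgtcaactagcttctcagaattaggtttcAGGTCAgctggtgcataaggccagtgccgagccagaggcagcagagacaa
Ucp1: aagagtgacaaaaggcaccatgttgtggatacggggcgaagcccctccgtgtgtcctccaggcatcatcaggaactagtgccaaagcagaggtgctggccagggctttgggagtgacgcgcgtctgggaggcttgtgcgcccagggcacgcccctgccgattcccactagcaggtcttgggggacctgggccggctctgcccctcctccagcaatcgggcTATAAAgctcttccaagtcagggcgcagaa
Slc25a4: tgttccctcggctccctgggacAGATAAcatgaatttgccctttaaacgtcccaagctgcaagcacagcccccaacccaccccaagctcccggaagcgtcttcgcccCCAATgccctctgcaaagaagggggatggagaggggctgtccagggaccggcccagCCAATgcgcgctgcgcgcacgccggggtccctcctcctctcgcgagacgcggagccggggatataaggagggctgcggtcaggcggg
Slc25a5: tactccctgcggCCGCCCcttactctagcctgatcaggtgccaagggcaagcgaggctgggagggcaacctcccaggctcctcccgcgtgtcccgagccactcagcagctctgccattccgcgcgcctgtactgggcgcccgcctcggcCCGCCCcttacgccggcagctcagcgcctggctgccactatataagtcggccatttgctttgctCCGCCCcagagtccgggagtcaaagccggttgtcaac

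The 4 windows share little. That of Ucp3 holds AGGTCA and none of the other motifs, that of Ucp1 holds TATAAA alone, that of Slc25a4 holds CCAAT and AGATAA, and that of Slc25a5 holds CCGCCC alone. A promoter was found for 41 of the 48 members. CCAAT occurred in 8 of the 14 members that were higher in stomach in both groups, in 3 of the 7 with a promoter that were lower, and in 34% of 33469 rat promoters. CCGCCC occurred in 5 of the 14 and in 6 of the 7, against 30.5% of all promoters. AGGTCA occurred in 2 of the 14 and none of the 7, against 14.1%, TATAAA in 2 and none, against 12.9%, and AGATAA in 1 and none, against 10.3%. A match is a description of letters and says nothing of a factor bound there.

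The tissue labels were borne out by marker genes, since 12 of 12 genes of the stomach mucosa were higher in C stomach than in C middle intestine and 13 of 15 enterocyte genes were lower. The 4 stomach arrays of a group were not alike: the mean of 14 striated muscle genes was between 3.03 and 3.71 on 3 C stomach arrays, but -0.81 on C stomach replicate 2 and between -0.39 and 0.95 on the OH stomach arrays. Gast, the gene of gastrin, was at -2.01 on C stomach replicate 2 and -2.02 on OH stomach replicate 4. On the other stomach arrays it was between 3.34 and 4.73, and on the intestinal arrays between -1.79 and -1.02. Tff2 too was lowest of its group on C stomach replicate 2, 0.91, and OH stomach replicate 4, -0.31. Gif was highest among C stomach arrays on replicate 2, at 4.93. Whether the arrays took the same stomach region was not tested. Each group lay on a slide of its own, both OH slides were scanned on one day and both C slides on another, and the median raw Cy3 signal was 341 to 399 on the OH slides and 188 to 195 on the C slides. Slide and group therefore cannot be told apart in any of the comparisons below, nor can scan day and treatment in those of OH with C, while both tissues of a group of rats shared a scan day. In the study's methods each treatment had 4 litters of its own, so C and OH rats came from different litters. The methods do not give the litter of each array. In whole tissue, fewer cells of a type and less RNA per cell cannot be told apart either.

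The first question was how the carriers differed between the stomach and the middle intestine. Ucp3, Ucp1, the oxodicarboxylate carrier Slc25a21, Slc25a48 and Slc25a35 were far higher in stomach, and the ATP-Mg/phosphate carriers Slc25a25 and Slc25a24 and the carrier Slc25a40 were lower. In C rats, 27 of the 40 members (67.5%) passed the threshold, an adjusted p under 0.05 in limma, beside 44.9% of all genes tested, with 16 higher in stomach, beside 22%, and 11 lower, beside 22.9%. In OH rats 23 (57.5%) passed, beside 38.4%, with 15 higher, beside 19.1%, and 8 lower, beside 19.3%. The median log2 difference over the members was 0.24 in C rats and 0.17 in OH rats, beside -0.02 and 0.00396 over all genes. Ucp1, Slc25a21, Slc25a45 and Slc25a48 entered the test only through the stomach arrays, so that any difference they show had to lie on that side. The arrays did not overlap between the tissues for 26 members in C rats, beside 43.9% of all genes, and for 17 in OH rats, beside 35.6%.

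The same direction was called in both groups for 22 members, 14 higher in stomach and 8 lower, beside 31.4% of all genes, 15.4% and 16%. Ucp2, Slc25a10, Slc25a14, Slc25a42 and Slc25a46 passed in C rats while the OH value missed the threshold, and the difference between the groups of rats passed for none of them. The phosphate carrier Slc25a3 passed in OH rats and missed in C rats. No member was called in opposite directions. The remaining 12 passed in neither.

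**Figure D1:**
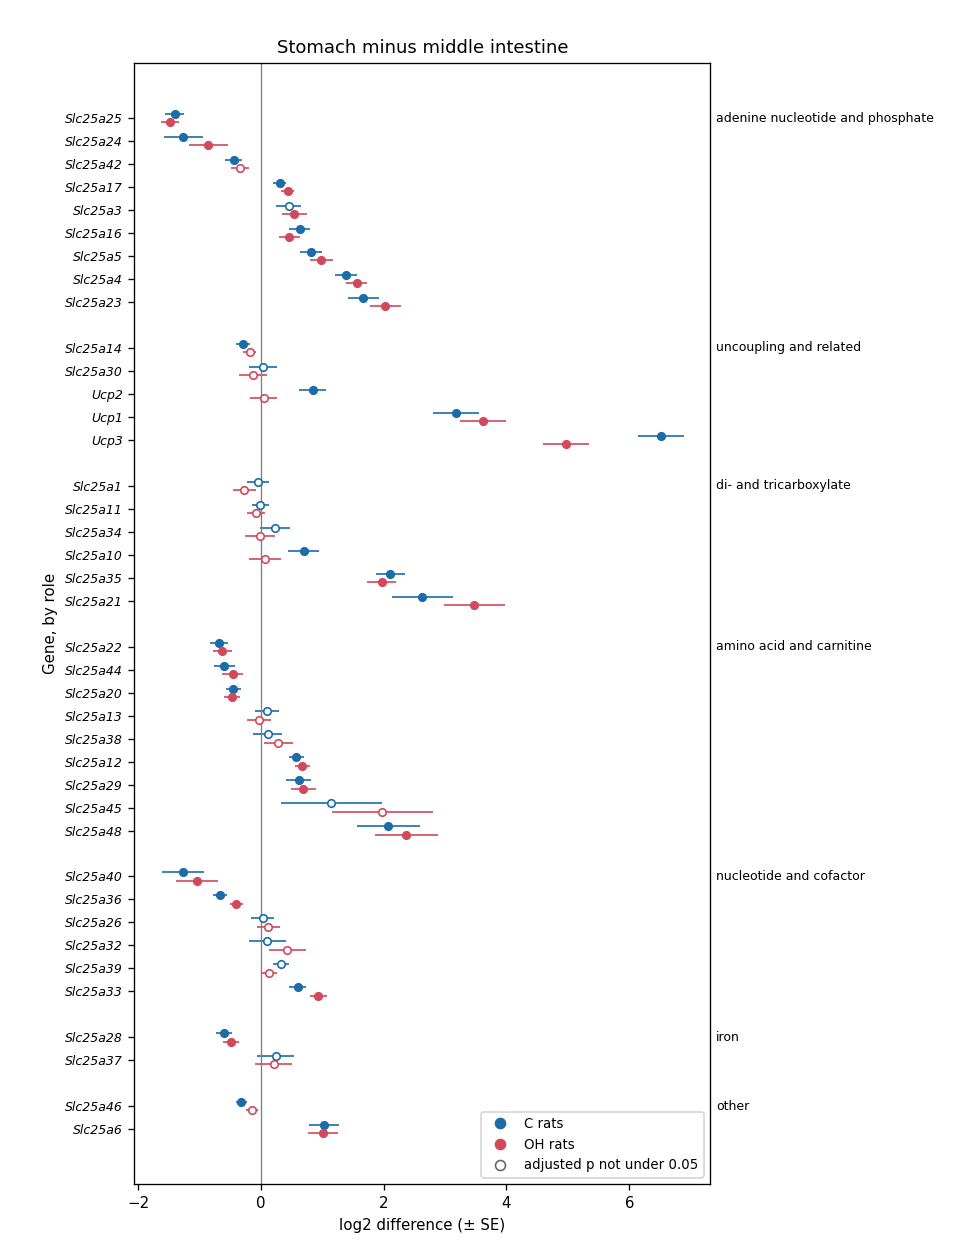
Log2 difference, stomach minus middle intestine, of 39 of the 40 members tested, ordered by role, with bars of 1 SE; C rats in blue, OH rats in red, open circles for an adjusted p not under 0.05. Ucp3 lies at 6.52 in C rats and 4.97 in OH rats, and Slc25a25 at the other end at -1.41 and -1.48.

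Uncoupling proteins carry protons or anions across the inner mitochondrial membrane. Ucp1 lets protons back into the matrix in brown fat, and Ucp3 is known from skeletal muscle. Of 5 tested uncoupling and related carriers, 3 were higher in stomach in C rats and 1 was lower, and 2 were higher in OH rats. The shares called were 80% and 40%, beside 44.9% and 38.4% of all genes. Ucp3 was at 3.55, 1.85, 3.31 and 3.61 on the C stomach arrays 1 to 4 and at 0.91, 2.18, 1.86 and 1.76 on the OH stomach arrays. It was at -2.82, -3.70, -3.62 and -3.61 in the intestine of C rats and at -2.97, -3.87, -3.10 and -3.26 in that of OH rats, and only 2 of the 4 C arrays were well above background there. Every stomach array lay above every intestinal array. The difference was 6.52 ± 0.376 (SE; 91.7-fold; adjusted p = 5.76e-09) in C rats and 4.97 ± 0.376 (31.4-fold; adjusted p = 1.06e-07) in OH rats. The striated muscle genes were low on C stomach replicate 2, where Ucp3 was at 1.85. The part of muscle in the tissue difference of Ucp3 was not tested.

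Ucp1, the thermogenic member, was at 0.06, 1.86, 1.27 and 0.38 in C stomach and at 1.10, 0.70, 2.09 and 0.57 in OH stomach. It was at -2.45, -2.46, -2.39 and -1.83 in the intestine of C rats and at -2.35, -2.76, -2.33 and -2.55 in that of OH rats, and none of these 8 arrays was well above background. Stomach and intestine did not overlap. On the Cy5 signal Ucp1 was at least 9.23-fold higher in stomach in C rats and at least 7.93-fold higher in OH rats. The limma fit, which is on the ratio and did not test these bounds, gave adjusted p = 8.91e-06 and 2.73e-06. The Ucp1 probe was kept only through the stomach arrays, so any difference had to lie on that side. For such bounds the mean of the bright group was set against, on each dim array, the larger of the probe's own signal and the lowest signal of any probe well above background. These bounds are on the scaled Cy5 signal alone, whose measured log2 means in C rats were 5.52 and 2.06, while the fitted difference is on the ratio to the pool, where it was 9.05-fold in C rats, so the C bound holds on the Cy5 scale and not on that of the ratio. The fitted log2 difference of 3.18 in C rats and 3.61 in OH rats shrank to 0.73 and 0.97 with another background correction (normexp), and stayed past the threshold. That correction adds an offset of 50 to both channels, which by itself shrinks the ratios of dim probes.

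Ucp1 and Ucp3 did not rise and fall together over the stomach arrays. Among C arrays replicate 2 had the highest Ucp1 and the lowest Ucp3, and replicate 4 the highest Ucp3 with a low Ucp1. Of a list of 8 adipocyte genes, 5 could be tested; their mean was 2.38, 0.09, 2.19 and 2.48 on the C stomach arrays, between -0.23 and 0.76 on the OH stomach arrays, and between -1.17 and -0.09 on the intestinal arrays. The striated muscle mean was 3.49, -0.81, 3.03 and 3.71 on the C stomach arrays, in the order of the replicates, and between -0.81 and -0.64 on the intestinal arrays. Adipoq, the fat cell hormone adiponectin, was at 2.73, 1.99, 2.65 and 2.72 on the C stomach arrays and at 2.75, 0.14, 2.38 and 2.53 on those of OH. Cox8b, a subunit of cytochrome c oxidase, was at 6.49, 0.20, 5.88 and 6.95 in C stomach and between -0.26 and 1.06 in OH stomach. Ckm, the creatine kinase of muscle, was at 3.26, -1.41, 2.57 and 3.68 in C stomach. Of the 8 adipocyte genes, Cidea, Fabp4 and Cidec were well above background on all 16 arrays, Adipoq on 15 and Cox8b on 13, and of the 18 striated muscle genes 11 were on all 16, Ckm, Mylpf and Mb among them. Plin1 was well above background on 2 of the 16 arrays, Lep on 1, Elovl3 on 3, Myh1 on 7, Myh2 on 6 and Myh4 on 5. The part of either cell type in the values of Ucp1 and Ucp3 was not tested.

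Ucp2, which is widely expressed, was at 1.01, 0.37, 0.87 and 1.03 in C stomach and at -0.03, -0.07, 0.25 and -0.25 in C middle intestine, and these arrays did not overlap (0.84 ± 0.221, adjusted p = 0.00671). With C stomach replicate 2 as the only C stomach array it was 0.39. In that setting, chosen after seeing the data, the lone array is assumed to vary like the other groups, and 15 of the 27 members called in C rats missed the threshold, as did many other genes, since 20.9% of all probes then passed; each of the 15 kept its direction, and the values of Ucp2, Slc25a40 (-0.84) and Slc25a44 (-0.36) moved by over 1.5 times. In OH rats it was at 0.13, 0.68, 0.53 and 0.18 in stomach and at 0.19, 1.03, 0.04 and 0.07 in the intestine, which overlapped (0.05 ± 0.221, adjusted p = 0.884). Slc25a14, a brain-type uncoupling protein, was lower in stomach in C rats (-0.29, adjusted p = 0.0471), a call that was lost when any 1 of the 8 arrays was left out (adjusted p 0.0503 to 0.142). Slc25a30, a close relative of it, was at 0.03 and -0.13 and passed in neither group.

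**Figure D2:**
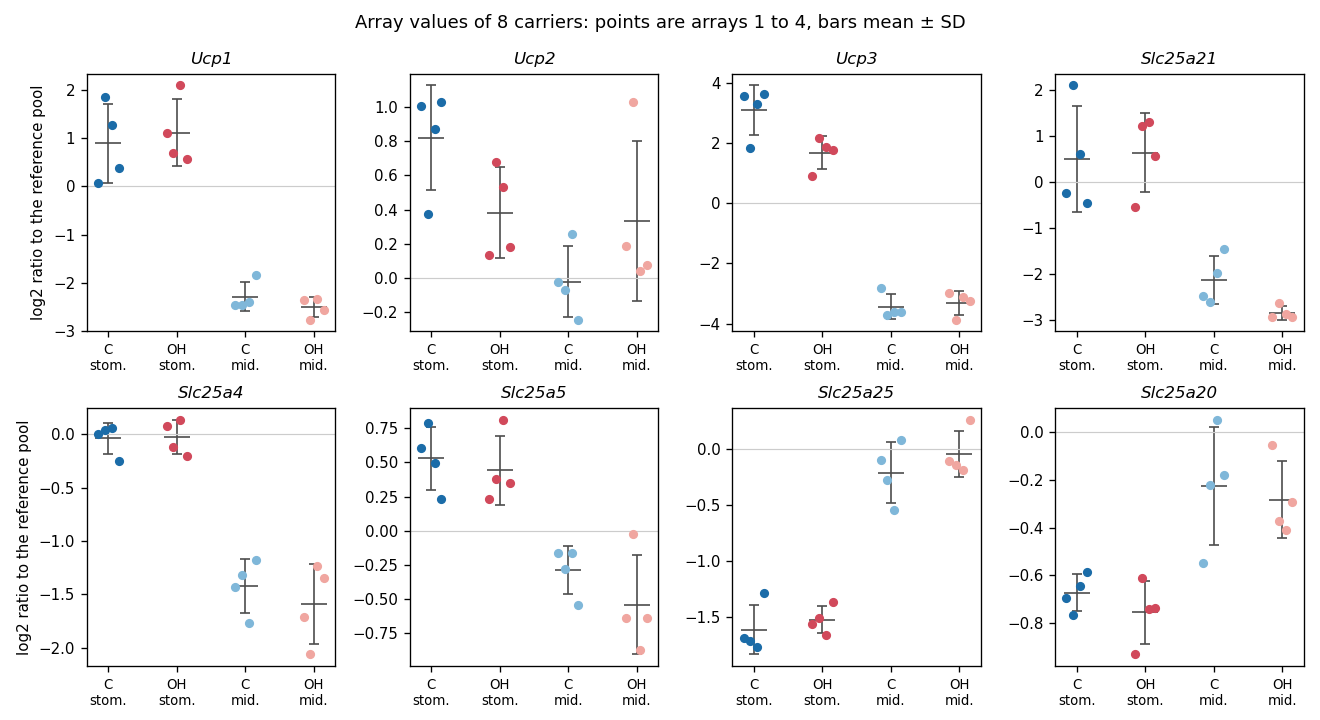
Log2 ratio to the reference pool of 8 carriers on every array (points, arrays 1 to 4 from left to right) for stomach and then middle intestine, C before OH in each, with the mean and SD; each panel has its own scale. Ucp1, Ucp3, Slc25a21, Slc25a4 and Slc25a5 lie higher in stomach on every array and Slc25a25 and Slc25a20 lie lower, while Ucp2 separates the tissues in C rats and overlaps in OH rats.

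Adenine nucleotide and phosphate carriers supply the matrix with ADP and phosphate and export ATP. Of 9 tested, 5 were higher and 3 lower in stomach in C rats, and 6 were higher and 2 lower in OH rats. The share called was 88.9% in each group of rats, beside 44.9% and 38.4% of all genes. Slc25a4, the ADP/ATP carrier of heart and muscle, was at 0.00016, 0.04, 0.06 and -0.25 in C stomach and at 0.08, -0.12, 0.13 and -0.20 in OH stomach. It was at -1.44, -1.32, -1.77 and -1.18 in the intestine of C rats and at -1.71, -2.06, -1.24 and -1.34 in that of OH rats. All 8 stomach arrays lay above all 8 intestinal ones, with differences of 1.38 ± 0.175 (2.61-fold; adjusted p = 1.97e-05) and 1.56 ± 0.175 (2.95-fold; adjusted p = 6.78e-06). Its value on C stomach replicate 2, where the striated muscle genes were low, lay between those of replicates 1 and 3. The part of muscle in the values of Slc25a4 was not tested.

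Slc25a5, the ADP/ATP carrier of growing cells, was at 0.61, 0.79, 0.49 and 0.23 in C stomach and at 0.23, 0.38, 0.81 and 0.35 in OH stomach. In middle intestine it was at -0.16, -0.28, -0.17 and -0.54 in C rats and at -0.64, -0.02, -0.87 and -0.64 in OH rats. It was thus higher in every stomach array, by 0.82 ± 0.184 (adjusted p = 0.00244) and 0.98 ± 0.184 (adjusted p = 0.0007). The probe named Slc25a6, after a further ADP/ATP carrier, is assigned by the array design to a predicted non-coding RefSeq transcript and was not counted among the 9. It gave 0.82, 1.18, 0.75 and 0.45 in the stomach of C rats, 0.38, 0.71, 1.05 and 0.56 in that of OH rats, -0.04, -0.41, 0.02 and -0.51 in the intestine of C rats and -0.28, 0.40, -0.83 and -0.65 in that of OH rats. The arrays of C rats did not overlap (1.03, adjusted p = 0.00353), while OH stomach replicate 1 lay just under OH middle intestine replicate 2 (1.01 in that comparison, adjusted p = 0.0045). Whether this probe also binds transcripts of its close relatives was not tested. Slc25a31, the ADP/ATP carrier of the testis, was not well above background on any array and was not tested. It read 0.30, 0.47, 0.35 and 0.23 in the stomach of C rats, 0.86, 0.66, 0.91 and -0.15 in that of OH rats, 0.55, 0.49, 0.29 and 0.50 in the intestine of C rats and 1.22, 0.50, 0.45 and 1.35 in that of OH rats, all groups overlapping.

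The phosphate carrier Slc25a3 was at 0.46, 0.82, 0.31 and 0.09 in C stomach and 0.11, -0.03, 0.08 and -0.30 in C middle intestine, and at 0.02, 0.24, 0.65 and 0.18 in OH stomach and -0.17, 0.23, -0.58 and -0.56 in OH middle intestine. Both pairs of groups overlapped. The differences were close, 0.45 ± 0.203 (adjusted p = 0.082) and 0.54 ± 0.203 (adjusted p = 0.0464), and the second call was lost in 6 of 8 fits that left out 1 OH array, all but OH stomach replicate 1 and OH middle intestine replicate 2 (adjusted p 0.0103 to 0.134).

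The calcium-regulated ATP-Mg/phosphate carriers, which adjust the adenine nucleotide pool of the matrix, went in different directions. Slc25a23 was higher in stomach, at 0.98, 1.94, 0.90 and 0.79 in C rats and 1.47, 1.33, 1.39 and 1.31 in OH rats, against -1.04, -0.43, -0.67 and 0.07 in the intestine of C rats and -0.69, -0.98, -0.60 and -0.33 in that of OH rats. The tissues did not overlap (1.67 ± 0.254, adjusted p = 0.000107, and 2.02 ± 0.254, adjusted p = 1.96e-05). Slc25a25 was lower in stomach, at -1.69, -1.72, -1.77 and -1.29 in C rats and -1.56, -1.50, -1.66 and -1.36 in OH rats, against -0.10, -0.28, -0.55 and 0.09 in the intestine of C rats and -0.11, -0.14, -0.19 and 0.26 in that of OH rats. Its differences of -1.41 ± 0.153 (adjusted p = 4.36e-06) and -1.48 ± 0.153 (adjusted p = 2.86e-06) lay far outside the spread of the arrays.

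Slc25a24, the third of these carriers, was also lower in stomach. It was at -0.44, -1.26, -0.43 and -0.29 in C stomach and 1.54, 0.37, 0.34 and 0.37 in C middle intestine, without overlap (-1.26 ± 0.32, adjusted p = 0.00537). In OH rats it was at 0.30, -0.73, -1.02 and -0.22 in stomach and 0.44, 0.78, 0.21 and 0.31 in the intestine, with OH stomach replicate 1 inside the intestinal range (-0.85 ± 0.32, adjusted p = 0.0477). That last call was lost in 7 of 8 fits that left out 1 OH array, all but the fit without OH stomach replicate 1 (adjusted p 0.0147 to 0.137). Among the rest, Slc25a16 was higher in stomach by 0.63 in C rats (adjusted p = 0.00751) and 0.47 in OH rats (adjusted p = 0.0418), and Slc25a17, the peroxisomal nucleotide carrier, by 0.30 and 0.44 (adjusted p = 0.031 and 0.00458). Leaving out 1 array ended the OH call of Slc25a16 in 6 of 8 fits, all but those without OH stomach replicate 1 or OH middle intestine replicate 3 (adjusted p 0.0107 to 0.121), and the C call of Slc25a17 in 5 of 8, those without C stomach replicate 2, 3 or 4 or C middle intestine replicate 1 or 2 (adjusted p 0.0174 to 0.0997). Other probes of Slc25a16 gave 1.09 (adjusted p = 0.00056 in limma) and 0.43 (adjusted p = 0.0503) in C rats. In OH rats they gave 1.06 (adjusted p = 0.00082) and 0.69 (adjusted p = 0.00528). Slc25a42, the coenzyme A carrier, was lower in stomach in C rats (-0.44, adjusted p = 0.0185), but without C middle intestine replicate 4 the value was -0.35 (adjusted p = 0.0599), and its other probe gave 0.15.

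Carriers of di- and tricarboxylates serve the malate shuttle, the citrate export for fatty acid synthesis and amino acid breakdown. Of 6 tested, 3 were higher in stomach in C rats and 2 in OH rats, and none was lower. These shares, 50% and 33.3%, were near the 44.9% and 38.4% of all genes. Slc25a21, which carries oxodicarboxylates of lysine and tryptophan breakdown, was at -0.24, 2.09, 0.60 and -0.47 in C stomach and at -0.56, 1.20, 1.30 and 0.56 in OH stomach. It was at -2.48, -2.60, -1.99 and -1.47 in the intestine of C rats and at -2.95, -2.63, -2.87 and -2.94 in that of OH rats, where 1 C array and no OH array was well above background. The tissues did not overlap, although the stomach arrays of a group spread widely. The fitted difference was 2.63 ± 0.5 in C rats (adjusted p = 0.000682), a size that leans on 3 intestinal arrays not well above background. In OH rats the Cy5 signal of Slc25a21 was at least 6.89-fold higher in stomach. The limma fit on the ratio, which did not test this bound, gave an adjusted p of 7.01e-05 there. The Slc25a21 probe was kept only through the stomach arrays, so any difference had to lie on that side. With normexp background correction and its offset, which shrinks ratios of dim probes, the differences fell to 0.62 and 0.91 and stayed past the threshold.

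Slc25a35, a carrier whose substrate is not settled, was at 2.37, 2.19, 2.07 and 2.18 in C stomach and 1.76, 2.10, 2.36 and 1.54 in OH stomach. It was at 0.54, 0.26, 0.19 and -0.61 in the intestine of C rats and 0.17, -0.09, 0.25 and -0.45 in that of OH rats. Its tissues were clearly apart (2.11 ± 0.236, adjusted p = 5.8e-06, and 1.97 ± 0.236, adjusted p = 1.22e-05). Its closest namesake, Slc25a34, differed by 0.23 and -0.02 and passed in neither group.

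The citrate carrier Slc25a1, whose probe is printed above, was at -0.31, -0.44, -0.49 and -0.22 in C stomach, -0.37, -0.67, 0.06 and -0.30 in C middle intestine, -0.95, -0.73, -0.43 and -0.66 in OH stomach and -0.26, -0.08, -0.93 and -0.43 in OH middle intestine. All 4 groups overlapped at least partly. Its tissue differences were -0.04 (95% interval -0.44 to 0.35; adjusted p = 0.861) and -0.27 (-0.67 to 0.12; adjusted p = 0.268). The oxoglutarate carrier Slc25a11 of the malate-aspartate shuttle differed by -0.01 and -0.08, with intervals of -0.31 to 0.29 and -0.38 to 0.22. The dicarboxylate carrier Slc25a10 was at 0.63, 0.92, 0.49 and 0.59 in C stomach and -0.09, -0.10, 0.36 and -0.33 in C middle intestine, without overlap, and at -0.14, 0.67, 0.87 and 0.67 in OH stomach and 0.66, 1.10, 0.04 and 0.0064 in OH middle intestine, with overlap. It passed in C rats (0.70 ± 0.257, adjusted p = 0.0389), in OH rats the difference was 0.07 (adjusted p = 0.864), and the C call was lost in 7 of 8 fits that left out 1 C array, all but the fit without C middle intestine replicate 3 (adjusted p 0.0241 to 0.0986).

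Among amino acid and carnitine carriers, 3 of 9 were higher and 3 lower in stomach, in C rats and in OH rats alike. The share called was 66.7% in each group of rats, beside 44.9% and 38.4% of all genes. Slc25a12, the calcium-regulated aspartate/glutamate carrier of muscle and brain, was at 0.77, 1.00, 0.67 and 0.73 in C stomach and 0.53, 0.78, 1.03 and 0.80 in OH stomach, against 0.38, 0.26, 0.19 and 0.04 in the intestine of C rats and 0.05, 0.07, 0.28 and 0.05 in that of OH rats. It was higher in stomach without overlap, by 0.58 ± 0.121 (adjusted p = 0.00143) and 0.67 ± 0.121 (adjusted p = 0.000496). Slc25a13, the aspartate/glutamate carrier of liver, did not part the tissues. Its values were 0.05, 0.45, -0.0015 and -0.06 in C stomach, 0.22, 0.07, 0.16 and -0.42 in C middle intestine, -0.33, 0.29, 0.52 and -0.03 in OH stomach and 0.30, 0.27, 0.05 and -0.07 in OH middle intestine, with differences of 0.10 (95% interval -0.31 to 0.51; adjusted p = 0.688) and -0.03 (-0.43 to 0.38; adjusted p = 0.925).

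Slc25a20, which brings acylcarnitines into the matrix for fatty acid oxidation, was lower in stomach. It was at -0.69, -0.76, -0.64 and -0.59 in C stomach and -0.93, -0.61, -0.74 and -0.74 in OH stomach, against -0.55, -0.22, 0.05 and -0.18 in the intestine of C rats and -0.06, -0.37, -0.41 and -0.29 in that of OH rats. No stomach array reached an intestinal one, and the differences were -0.45 ± 0.127 (adjusted p = 0.0105) and -0.47 ± 0.127 (adjusted p = 0.00869). The glutamate carrier Slc25a22 was likewise lower in stomach, at -0.68 in C rats (adjusted p = 0.00208) and -0.63 in OH rats (adjusted p = 0.0042). Slc25a44, a carrier of branched-chain amino acids, was at -0.59 (adjusted p = 0.0107) and -0.46 (adjusted p = 0.0446), but its other probe went the other way, at 0.84 and 0.23, and the OH call was lost in 6 of 8 fits that left out 1 OH array, all but those without OH middle intestine replicate 1 or 4 (adjusted p 0.0234 to 0.124).

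Slc25a48 was higher in stomach, at 1.34, 1.85, 3.13 and 1.62 in C rats and 1.14, 2.79, 3.17 and 2.92 in OH rats, while in middle intestine it was at -0.74, 0.03, -0.16 and 0.51 in C rats and -0.42, 1.09, 0.57 and -0.69 in OH rats, where no array was well above background. The tissues did not overlap, and the Cy5 signal was at least 3.12-fold higher in C stomach and at least 3.09-fold in OH stomach. The limma fit on the ratio, which did not test these bounds, gave adjusted p = 0.00423 and 0.00198. The Slc25a48 probe was kept only through stomach arrays, so any difference had to lie on that side. The fitted differences of 2.08 and 2.37 fell to 0.32 and 0.54 with normexp background correction and its offset, which shrinks ratios of dim probes, still past the threshold. The basic amino acid carrier Slc25a29 was higher in stomach by 0.62 (adjusted p = 0.0241) and 0.69 (adjusted p = 0.0154), with overlapping arrays. Its C call was lost without C stomach replicate 1 or 4 or C middle intestine replicate 1 or 4 (adjusted p up to 0.0791), and its OH call without OH stomach replicate 3 (adjusted p = 0.051). Slc25a45 had a wide error, at 1.15 ± 0.828 (adjusted p = 0.275) and 1.98 ± 0.828 (adjusted p = 0.0731), and passed in neither group.

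Slc25a38, the glycine carrier of haem synthesis, was at 0.72, 1.50, 0.79 and 0.56 in C stomach, 0.98, 0.84, 1.00 and 0.30 in C middle intestine, 0.40, 1.03, 1.40 and 0.96 in OH stomach and 0.65, 0.83, 0.76 and 0.42 in OH middle intestine. The groups overlapped, with differences of 0.11 (95% interval -0.39 to 0.62; adjusted p = 0.718) and 0.28 (-0.22 to 0.78; adjusted p = 0.369). The ornithine carrier Slc25a15, which links the urea cycle enzymes of the matrix with the cytosol, could not be tested. It was at 1.12, 2.83, 1.02 and 1.02 in the intestine of C rats and 1.83, 0.28, 1.30 and 0.41 in that of OH rats, against 0.64, -0.30, -0.55 and 0.73 in C stomach and -0.02, -0.15, -0.46 and -0.16 in OH stomach, and only 1 array of each intestinal group and no stomach array was well above background.

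Of 7 tested nucleotide and cofactor carriers, 1 was higher and 2 were lower in stomach in each group of rats (42.9%, near the 44.9% and 38.4% of all genes). Slc25a33, a pyrimidine nucleotide carrier, was at 1.35, 1.10, 0.90 and 1.20 in C stomach and 1.16, 1.09, 1.28 and 1.23 in OH stomach, against 0.71, 0.21, 0.73 and 0.50 in the intestine of C rats and 0.42, 0.05, 0.12 and 0.42 in that of OH rats. It was higher without overlap (0.60 ± 0.137, adjusted p = 0.00281, and 0.94 ± 0.137, adjusted p = 8.5e-05). Its relative Slc25a36 went the other way, at -0.67 in C rats (adjusted p = 0.000243) and -0.40 in OH rats (adjusted p = 0.0114), and at -0.84 in OH rats as the mean over its probes.

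Slc25a40, which like Slc25a39 is known for the import of glutathione, was at 0.29, 0.55, 0.16 and -0.50 in C stomach and 1.63, 1.37, 1.97 and 0.62 in C middle intestine, and at -1.01, 0.20, 0.39 and -0.30 in OH stomach and 0.33, 1.27, 1.11 and 0.74 in OH middle intestine. Only the OH arrays overlapped. The differences were -1.27 ± 0.343 (adjusted p = 0.00781) and -1.04 ± 0.343 (adjusted p = 0.0262), and the second call was lost without OH stomach replicate 1 or 4 or OH middle intestine replicate 2 or 3 (adjusted p up to 0.0838). The other, dimmer probe of Slc25a40 gave -1.70 (adjusted p = 0.000232 in limma) and -1.53 (adjusted p = 0.000642). Slc25a39 itself was at 0.32 (adjusted p = 0.0556) and 0.13 (adjusted p = 0.445), and its other probe at 0.38 (adjusted p = 0.0425) and 0.18 (adjusted p = 0.34). The carriers Slc25a26 for S-adenosylmethionine and Slc25a32 for folate differed by 0.03 to 0.43 and passed in neither group.

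The mitoferrins bring iron into the matrix. Slc25a28, the widely expressed one, was at -0.04, 0.15, -0.08 and -0.06 in C stomach and -0.09, 0.01, -0.02 and -0.30 in OH stomach, against 0.71, 0.65, 0.51 and 0.53 in the intestine of C rats and 0.34, 0.11, 0.76 and 0.35 in that of OH rats. The tissues did not overlap within either group of rats, and stomach minus intestine was -0.60 ± 0.128 (adjusted p = 0.00155) and -0.49 ± 0.128 (adjusted p = 0.00747). Its other probe gave -0.22 (adjusted p = 0.22) and -0.35 (adjusted p = 0.0621) and passed in neither group. Slc25a37, the mitoferrin of red cell precursors, was at -0.94, -0.88, -1.24 and -1.30 in C stomach, -0.87, -1.0, -2.07 and -1.39 in C middle intestine, -1.69, -1.31, -0.62 and -1.80 in OH stomach and -1.59, -2.08, -0.95 and -1.64 in OH middle intestine. It did not part the groups (0.24, 95% interval -0.40 to 0.89, adjusted p = 0.532, and 0.21, -0.43 to 0.86, adjusted p = 0.614). Slc25a46, which acts on the outer membrane and its fission, was lower in stomach in C rats (-0.32, adjusted p = 0.0115) and at -0.14 in OH rats (adjusted p = 0.24).

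The second question was whether obestatin changed the carriers. No member passed in any comparison of OH with C. In stomach 0 of 40 passed in limma, beside 0% of all genes, and 1 member had an unadjusted p under 0.05, beside 10.7%. In middle intestine 0 of 40 passed, beside 0.246% (0.219% higher and 0.0274% lower in OH), and none had an unadjusted p under 0.05, beside 9.59%. When the OH minus C difference of stomach was set against that of middle intestine, 0 of 40 passed in limma, beside 0%, and 2 had an unadjusted p under 0.05, beside 5.53%. The analysis of variance with Tukey's HSD named in the study's methods called 1 member in stomach, Ucp3, and none in middle intestine, while over all probes it called 3.35% in stomach and 4.42% in middle intestine. There only the test over all groups together, which tissue differences can pass, was adjusted over probes. The Tukey p of a pair was not, so these calls are less strict than those of limma. The arrays of OH and C did not overlap for 1 member in stomach, beside 7.76%, and 1 in middle intestine, beside 5.24%. The median difference over the members was 0.01 in stomach and -0.10 in middle intestine, beside 0.00462 and -0.00718 over all genes, and 27 of 40 (67.5%) were below 0 in middle intestine, beside 51.4% of all genes.

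**Figure D3:**
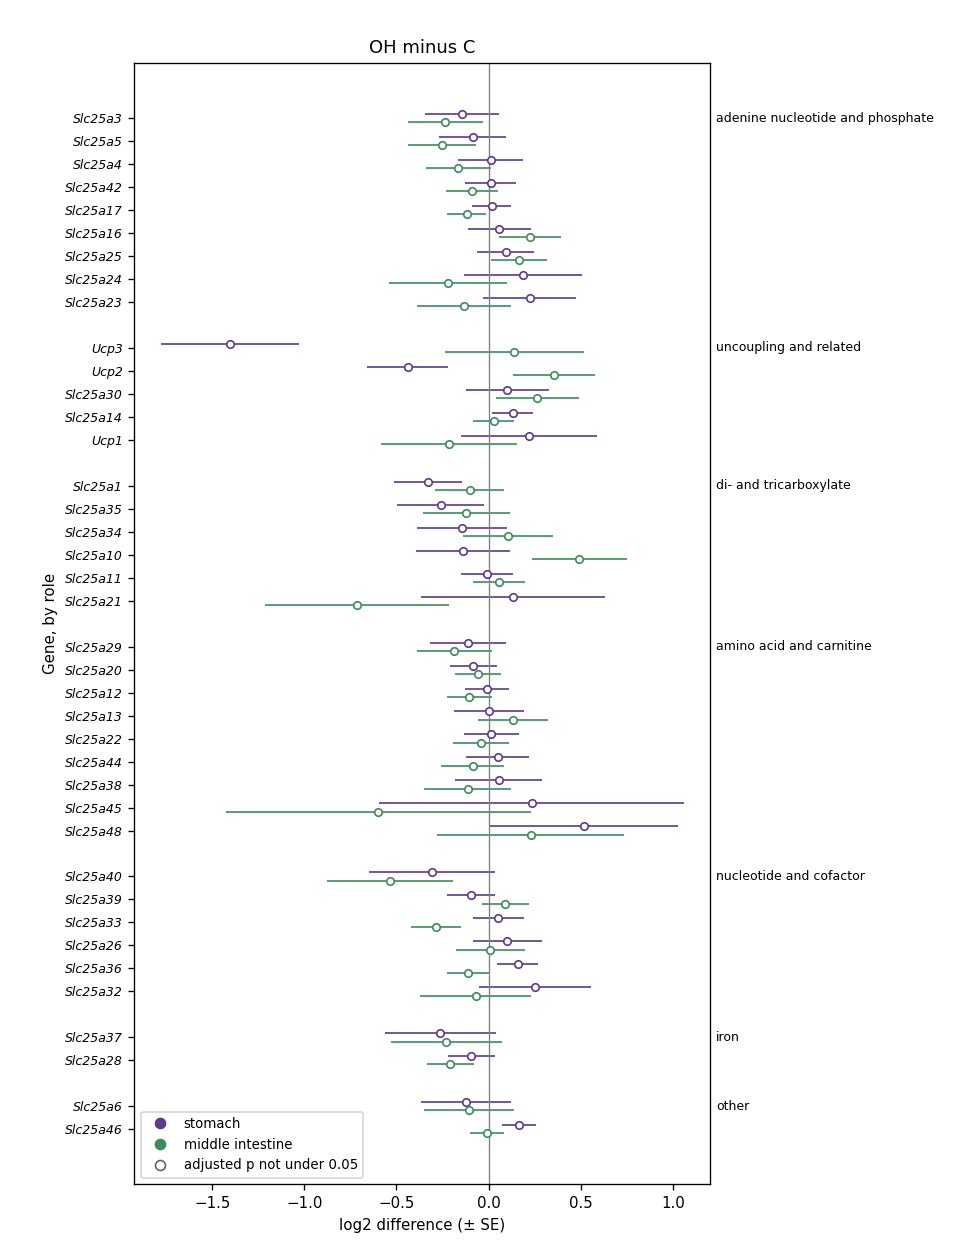
Log2 difference, OH minus C, of 39 of the 40 members tested, in stomach (purple) and middle intestine (green), with bars of 1 SE; every circle is open because no adjusted p was under 0.05. Ucp3 in stomach stands apart at -1.40, and the other members lie between -0.71 and 0.52.

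Ucp3 had the smallest p in stomach. The values given above put 3 C stomach arrays at 3.31 or higher and the fourth, replicate 2, at 1.85, inside the range of the OH arrays, 0.91 to 2.18. The difference was -1.40 ± 0.376 (95% interval -2.21 to -0.60; unadjusted p = 0.00211; adjusted p = 0.263 in limma). Without C stomach replicate 2 it was -1.82 (adjusted p = 0.00441), and with replicate 2, which lies inside the OH range, as the only C stomach array it was -0.17, a value given with no test. The lone array aside, there were 19 alternative settings, among them the fit without C stomach replicate 2 just given. Over these 19 the adjusted p ran from 0.00441 to 0.683, and 17 did not pass. For the analysis of variance, the p used was the Tukey p of the pair, not adjusted over probes. In middle intestine the difference of Ucp3 was 0.14 (-0.66 to 0.94; adjusted p = 0.967), and the difference between the tissues was -1.54 (unadjusted p = 0.0112; adjusted p = 0.833), which without C stomach replicate 2 was -1.96 (adjusted p = 0.0436).

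Among the C stomach arrays, Ucp3 was high where striated muscle genes were high. Of 18 listed striated muscle genes 14 could be tested. Their mean was 3.49, 3.03 and 3.71 on C stomach replicates 1, 3 and 4 and -0.81 on replicate 2, and 0.95, -0.28, -0.39 and 0.63 on the OH stomach arrays. Against C the list had a median difference of -2.26 in OH stomach, with none of 14 genes past the threshold. For 9 of them the unadjusted p in limma was under 0.05, beside 10.7% of all genes. Within the OH arrays the order was not the same, since OH replicate 1 had the highest muscle mean and the lowest Ucp3. The mean of 8 smooth muscle genes lay between -2.57 and -1.38 on the C stomach arrays and between -2.59 and 0.96 on those of OH, where replicate 1 was highest. The part of muscle in the difference of Ucp3 was not tested.

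**Figure D4:**
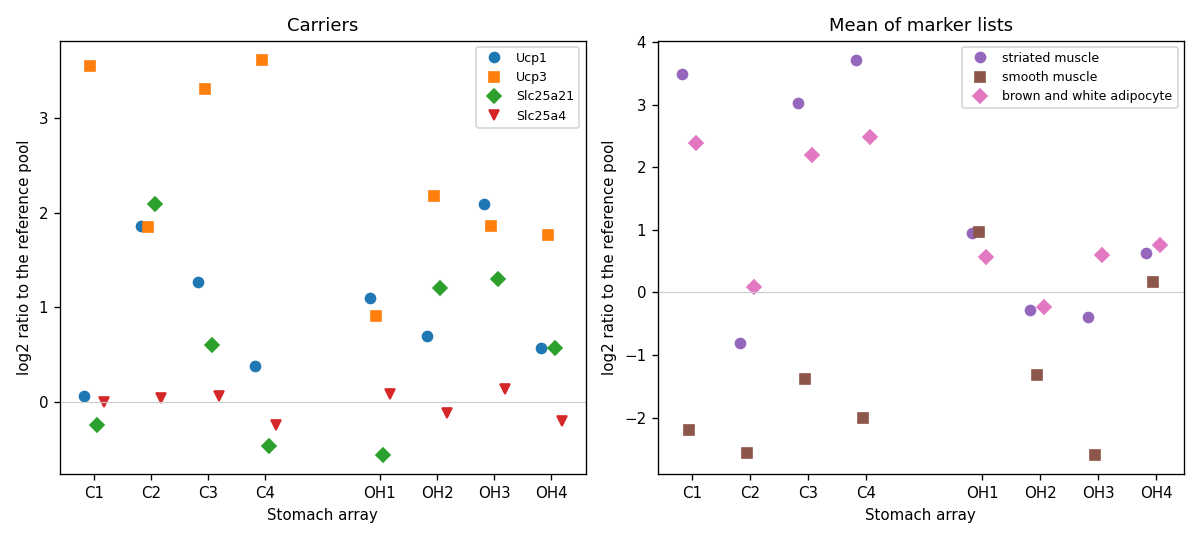
Log2 ratio to the reference pool on the 8 stomach arrays, C replicates 1 to 4 and OH replicates 1 to 4, of 4 carriers (left) and of the means of 3 marker gene lists (right). Ucp3, striated muscle and adipocyte genes drop together on C2, where Ucp1 and Slc25a21 are highest among the C arrays, and Slc25a4 stays between -0.25 and 0.13 on all 8.

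Ucp2 had differences of opposite sign in the tissues, and neither passed. In stomach OH minus C was -0.44 (95% interval -0.91 to 0.03; adjusted p = 0.507) and in middle intestine it was 0.35 (-0.12 to 0.83; adjusted p = 0.647), and the difference between the tissues was -0.79 (unadjusted p = 0.0234; adjusted p = 0.836). The intestinal value leaned on OH replicate 2, at 1.03, while the other OH arrays were at 0.04 to 0.19 against -0.25 to 0.25 in C rats. Slc25a46 was the member whose stomach arrays did not overlap, at -0.01, 0.16, 0.08 and 0.12 in C rats and 0.27, 0.23, 0.27 and 0.24 in OH rats. The difference was small, 0.17 (95% interval -0.03 to 0.36; adjusted p = 0.545). Slc25a1 was at -0.33 in stomach (-0.73 to 0.07; adjusted p = 0.549).

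In middle intestine the smallest p belonged to Slc25a33, at -0.29 (95% interval -0.58 to 0.00872; unadjusted p = 0.0563; adjusted p = 0.5). Slc25a10 was at 0.49 (-0.06 to 1.04; adjusted p = 0.552), with OH replicates 1 and 2 above all C arrays and OH replicates 3 and 4 among them. Slc25a28 was at -0.21 (-0.48 to 0.07; adjusted p = 0.641), and at -0.12 without OH replicate 2. Slc25a21 was the member without overlap, with OH minus C at -0.71 (-1.78 to 0.35; adjusted p = 0.695), but no OH array and 1 C array of the intestine was well above background, so that the size of this difference is not measured.

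For several carriers of the main energy route the intervals of OH minus C all held 0, and some were wide. The difference of OH from C in stomach was 0.01 for Slc25a4 (95% interval -0.36 to 0.39), -0.09 for Slc25a5 (-0.48 to 0.31), -0.14 for Slc25a3 (-0.58 to 0.29), -0.01 for Slc25a12 (-0.27 to 0.25) and -0.08 for Slc25a20 (-0.35 to 0.19). In middle intestine the corresponding values were -0.17 (-0.54 to 0.21), -0.25 (-0.65 to 0.14), -0.23 (-0.67 to 0.20), -0.10 (-0.36 to 0.15) and -0.06 (-0.33 to 0.21). These intervals are for a single gene, before any adjustment over genes, and they do not show that the carriers were unchanged.

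The members also varied from array to array within a group. The carriers tended to be high or low together on certain arrays: 27 of 40 (67.5%) had their highest C stomach value on replicate 2, beside 47.3% of all genes, and 28 of 40 (70%) had their highest OH stomach value on replicate 3, beside 41.9%. On OH stomach replicate 1, 26 of 40 (65%) had their lowest value, beside 41.5%. Both C replicate 2 and OH replicate 3 had the lowest smooth muscle mean of their group, -2.57 and -2.59, and OH replicate 1 the highest, 0.96. The mean of 17 general mitochondrial genes was highest in its group on C replicate 2, 0.44, and OH replicate 3, 0.55. Among OH stomach arrays it was lowest on replicate 1, 0.08. Atp4b, a subunit of the gastric acid pump, was also highest on C replicate 2, 2.30, and OH replicate 3, 2.07. The mean of 12 stomach mucosa genes went both ways, lowest of C on replicate 2, 2.90, and highest of OH on replicate 3, 3.275. The median SD of a member was 0.225 in the stomach of C rats, 0.261 in that of OH rats, 0.267 in C intestine and 0.272 in OH intestine, beside 0.192, 0.248, 0.266 and 0.261 for all genes. The part of muscle layers, stomach mucosa or general mitochondrial genes in these shifts was not tested.

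The other 8 members could not be tested: Slc25a2, Slc25a15, Slc25a18, Slc25a27, Slc25a31, Slc25a41, Slc25a47 and Slc25a54 were not well above background on all 4 arrays of any group. Slc25a18, Slc25a27, Slc25a31, Slc25a41 and Slc25a54 were above it on none of the 16 arrays. Slc25a47, a carrier known from liver, lay at -5.13 to -2.50 in stomach and -4.53 to -2.75 in the intestine, and was above background on 4 of the 16 arrays. Several probes had been kept for 12 members, and they shared the direction of the tissue difference in 10 of 12 in C rats and 10 of 12 in OH rats.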

How the data were processed

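RNA was taken from the stomach and the middle intestine of 1 rat per array, and each array was hybridised against a pool of total RNA from all animals. Per the file headers, the deposited intensity values (processed Cy5 and Cy3 signals of the Agilent SurePrint G3 rat array) had been background-subtracted, detrended and Lowess dye-normalised within the array by Agilent Feature Extraction (10.10.1.1 in the headers, 10.7.3.1 in the submitters' processing notes). The deposited log10 ratios of the value matrix equalled the scanner files' ratios on 15 of 16 arrays and differed by at most 0.005 on the other, where they had been rounded, so the intensities were used. Scanner files give no read depth, and the number of arrays limits the precision. Weak signals carry surrogate values, and a pool that holds the same tissues sets the ratio.

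Log2 ratios (Cy5 over Cy3) were averaged over the spots of each probe, without control spots and outlier spots (1.3% of spots). A probe was kept if its Cy5 signal was marked well above background on each of the 4 arrays of some group, with 3 or more values in each group, which left 21174 of 30367 probes; 43 of these lack a value on some array, and the fit then used the others. limma 3.58.1 (R 4.3.3, data.table at 1.17.8) fitted the 4 groups together with an empirical Bayes variance (prior degrees of freedom 2.47), and p-values were Benjamini-Hochberg adjusted over the probes kept, at 0.05 (two-sided). Errors are SE of the fit unless stated, intervals are at 95%, and n = 4 arrays in each group. A gene took its probe with the highest mean Cy5 signal. The scripts were tested on simulated data. Figures were drawn with matplotlib 3.10.9 under Python 3.11.15.

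Groups came from the labels. Named with all array values were 26 members: the 12 with the largest mean tissue differences among those called in both groups of rats, the 4 with the smallest p for OH against C in each tissue, and a list of well-known carriers; others were named after their values were seen. Of the members tested, 1 is counted but not reported here by name or drawn in the figures. Members and lists were chosen with earlier results of these data known. Alternatives were other background corrections and scalings, the filter on dim probes, outlier spots, probe choice, Cy5 alone, an analysis of variance, the replicate number as a block and each array left out.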

Additional observations from a re-analysis of the deposited data

Results flagged for a closer look

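In 104 groups of 4 arrays, 9 had an array whose gap to the nearest other array, as a share of the group's range, was above Dixon's critical value of 0.829; chance gives about 5.2 such groups. In the intestine of C rats, Ucp3 had a share of 0.902, with replicate 1 at -2.82 and the others between -3.70 and -3.61. Ucp1 there had 0.886, with replicate 4 at -1.83 and the others between -2.46 and -2.39, none of them well above background. Slc25a24 there had 0.976, with replicate 1 at 1.54 and the others between 0.34 and 0.37. Slc25a15 there had 0.945, with replicate 2 at 2.83 and the others between 1.02 and 1.12.

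In C stomach the array that stood apart was replicate 2 in every such case. Slc25a23 had 0.833, with 1.94 against 0.79 to 0.98, Slc25a24 had 0.85, with -1.26 against -0.44 to -0.29, and Slc25a28 had 0.849, with 0.15 against -0.08 to -0.04. In the intestine of OH rats, Ucp2 had 0.85, with replicate 2 at 1.03 against 0.04 to 0.19, and Slc25a12 had 0.904, with replicate 3 at 0.28 against 0.05 to 0.07. The cause was not tested in any of them.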

How the results depend on the processing

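Under the alternatives, 104 counts of members past the threshold stayed within 1.5 times the first count and 6 did not, and the tissue counts ran from 23 to 28 in C rats (27) and from 18 to 25 in OH rats (23), other than 12 in C rats when C stomach replicate 2 stood alone for its group, a setting chosen after seeing the data in which the lone array is assumed to vary like the other groups. The 104 include counts that stayed at 0, and those under Aquantile scaling, which cannot change the ratios, so the tally is no measure of stability. With each array left out, the tissue counts were 23 to 27 and 18 to 21. For OH against C in stomach, where limma called 0, 1 member passed without a filter on dim probes (Slc25a41, 0.58, well above background on no array), 1 under the analysis of variance with Tukey's HSD (Ucp3) and 0 to 1 with an array left out; in middle intestine 1 passed without the filter (Slc25a41, 0.87) and 0 with any array left out, and for the response between tissues 0 to 1 passed. Over all probes kept, limma called 0 in stomach and 78 in middle intestine, while 639 and 1378 of 30367 probes passed without the filter, 709 and 936 under the analysis of variance, and 25 and 651 with Cy5 alone. The Tukey p of a pair in the analysis of variance was not adjusted over probes. Of the values of named members, 1390 kept direction and call, 100 lost the call, 8 gained it and 24 changed sign.

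Most changes of sign concerned values near 0, other than Slc25a44 in C rats (-0.59) and Ucp2 for OH against C in stomach (-0.44). Without the reference channel Slc25a13 in OH rats was at 0.16, and with the mean over probes it was at 0.087 and Slc25a44 in C rats at 0.13. Slc25a37 in OH rats was at -0.019 with normexp, Slc25a38 in C rats at -0.15 with outlier spots kept, and Ucp2 for OH against C in stomach at 0.0097 with C stomach replicate 2 alone. With arrays left out, the tissue difference ran from -0.16 to 0.082 for Slc25a1, from -0.040 to 0.17 for Slc25a13, from -0.00089 to 0.40 for Slc25a37 and from -0.090 to 0.23 for Slc25a38 in C rats, and from -0.082 to 0.28 for Slc25a10, from -0.16 to 0.12 for Slc25a13, from -0.032 to 0.42 for Slc25a37 and from -0.051 to 0.28 for Ucp2 in OH rats. The cause was not tested.

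With the replicate number as a block, the pairing left 26 members in C rats, 22 in OH rats and 0 for OH against C in each tissue and for the response between tissues. Slc25a10 in C rats (adjusted p = 0.0717) and Slc25a3 in OH rats (adjusted p = 0.0639) lost the call. Same-numbered arrays of the 2 tissues correlated between 0.0581 and 0.245 in C rats and between -0.123 and 0.322 in OH rats in their deviations, and not every pair was over 0.1, so the numbers were not taken as pairs; 5 of the 8 correlated best with their own number. A slide block was not run, since each slide holds 1 group. Aquantile scaling leaves the ratio of an array as it is.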

Other observations

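Enzymes that work beside the carriers were read from a list of 28 genes, of which 26 could be tested. In C rats, 11 were higher and 6 lower in stomach (65.4% passed, beside 44.9% of all genes), with a median log2 difference of 0.22; in OH rats, 8 were higher and 6 lower (53.8%, beside 38.4%), with a median of 0.16. Got1 and Mdh1, the cytosolic enzymes of the malate-aspartate shuttle, were higher in stomach, at 2.25 and 1.24 in C rats and 2.47 and 1.23 in OH rats. The pyruvate carrier subunits Mpc1 and Mpc2 were higher too, at 1.17 and 0.45 in C rats and 1.33 and 0.58 in OH rats. Cps1, Otc and Oat, enzymes of citrulline and ornithine synthesis that are typical of the suckling intestine, were far lower in stomach, at -5.70, -6.16 and -3.43 in C rats and -5.96, -5.84 and -3.45 in OH rats. Glud1, which converts glutamate to 2-oxoglutarate, was lower at -1.17 in C rats and -0.93 in OH rats. Of the carnitine palmitoyltransferases, Cpt1a was at 0.66 in C rats (limma, adjusted p = 0.0254) and 0.34 in OH rats (adjusted p = 0.246), and the muscle form Cpt1b was at -0.63 (adjusted p = 0.0788) and -1.31 (adjusted p = 0.00195). None of the 26 passed between OH and C in limma. The unadjusted p was under 0.05 for 1 in stomach, beside 10.7% of all genes, and for 2 in middle intestine, beside 9.59%.

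General mitochondrial genes were read from a further list. Of 17 tested out of 18, 0 were higher in stomach in either group of rats, and 7 were lower in C rats and 5 in OH rats (41.2% and 29.4%, beside 22.9% and 19.3% of all genes called lower and 44.9% and 38.4% called either way). Tomm70a, a receptor of protein import, was at -1.12 and -0.91, citrate synthase Cs at -0.79 and -1.08, the chaperonin Hspd1 at -0.93 and -0.78 and the DNA packaging factor Tfam at -0.60 and -0.64. The median of the 17 was -0.16 in C rats and -0.11 in OH rats, beside 0.24 and 0.17 for the carriers.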
